A study of Mus musculus with 12 samples.

Results

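The subject here is a set of 7 genes of the AP-1 transcription factor family, Fos, Fosb, Fosl2, Jun, Junb, Jund and Atf3, in single myeloid cells sorted from adult mouse brain. The genes were taken by their symbols, and they are 7 of the 31053 genes counted in every library. All 7 passed the filter on low counts that left 9882 genes for testing.

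AP-1 factors act as dimers. Jun proteins can pair with each other, whereas Fos proteins need a Jun partner to bind DNA, and Atf3, a stress-induced member of the related ATF/CREB branch, can also pair with Jun. The dimers bind the motif TGANTCA or the longer TGACNTCA. Fos, Fosb, Jun, Junb and Atf3 are immediate early genes, whose transcription can start within minutes of a stimulus without new protein synthesis, and their short-lived transcripts fade quickly once transcription stops. Jund is usually described as the more steadily expressed Jun gene. In microglia, the resident macrophages of the brain, and in the border macrophages of the meninges and vessel walls, these genes respond to injury, cytokines and handling of the tissue.

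The cells came from whole brains of 12 male C57BL/6J mice at postnatal day 90, with 1 library per animal and no genetic modification named in the labels. The brains were taken apart by cold Dounce homogenization (DNC) or by warm enzymatic digestion (ENZ), each without inhibitors (NONE) or with inhibitors of transcription and translation (INHIB: actinomycin D, triptolide and anisomycin). The 4 preparations are called ENZ-NONE, ENZ-INHIB, DNC-NONE and DNC-INHIB, with n = 3 animals each. Live cells positive for CD45 and CD11b were sorted with a wide gate, so other myeloid cells could enter beside microglia, and the meninges were removed only as far as possible. Batch 1 held DNC-NONE replicates 1 and 2, ENZ-NONE replicates 4 and 5, DNC-INHIB replicate 4 and ENZ-INHIB replicate 1, and batch 2 held the others.

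Each library held 2118143 to 3654465 deposited UMIs (unique molecular identifiers, each standing for 1 captured transcript). After cell filters, 18826 of 28426 cells were kept, between 853 and 2185 per library, with a median of 1153 to 1572 UMIs per cell. Of the 18590 barcode sequences of kept cells, 236 occurred in more than 1 library. Levels are given in CPM, a gene's UMIs per 1000000 UMIs of the kept cells of a library, and the kit counts transcript 3′ ends, so a count does not scale with transcript length. The 12 microglia markers were detected, and their summed level was 41378 to 47422 CPM in the 12 libraries. For the AP-1 genes, 2 libraries stood apart from the others of their group, DNC-NONE replicate 1 and ENZ-NONE replicate 6, so counts that rest on them are also given without them. The same libraries had the lowest microglia marker sums, 42855 CPM in DNC-NONE replicate 1 and 41378 CPM in ENZ-NONE replicate 6, against 45346 CPM or more in each other library, and the part of these markers in the AP-1 levels was not tested.

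The 7 genes lie at separate places in the mouse genome (GRCm38, the assembly also called mm10; GENCODE gene models). Fos is at chr12:85473890-85477273 and Fosb at chr7:19302696-19310051, Fosl2 at chr5:32135801-32157842, Jun at chr4:95049034-95052222, Junb at chr8:84974484-84978718, Jund at chr8:70698949-70700616 and Atf3 at chr1:191170296-191218039. Jun, Junb and Jund have a single exon each, and the transcript models used for Fos, Fosb, Fosl2 and Atf3 have 4 exons. Jun, Junb, Jund and Atf3 overlap an annotated gene on the opposite strand (Junos, Prdx2, Gm11175 and Gm24748). No source used here states whether reads were counted by strand, so the counts of these 4 genes carry that uncertainty.

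The stretches just before the transcription starts of Fos, Fosb, Jun and Junb are shown because each holds a binding motif of this same factor family or of its CREB relatives, and because their RefSeq starts lie within 30 bases of those of the gene models. Each line gives the 160 bases that end at the RefSeq transcription start (GRCm38.p6), read 5′ to 3′ on the strand of the gene, at chr12:85473730-85473889 (plus strand), chr7:19310046-19310205 (minus), chr4:95052223-95052382 (minus) and chr8:84978749-84978908 (minus). Capitals mark TGACG, the core of a CREB or ATF site, the 8-letter TGACATCA in Jun, and the TATA box TATAAA in Fos.
Fos: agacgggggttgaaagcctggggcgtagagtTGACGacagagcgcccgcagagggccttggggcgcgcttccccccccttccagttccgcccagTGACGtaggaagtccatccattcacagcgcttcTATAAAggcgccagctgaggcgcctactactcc
Fosb: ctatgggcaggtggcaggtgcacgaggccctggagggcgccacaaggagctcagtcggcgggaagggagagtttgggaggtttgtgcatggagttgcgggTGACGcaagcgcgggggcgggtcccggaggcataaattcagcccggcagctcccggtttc
Jun: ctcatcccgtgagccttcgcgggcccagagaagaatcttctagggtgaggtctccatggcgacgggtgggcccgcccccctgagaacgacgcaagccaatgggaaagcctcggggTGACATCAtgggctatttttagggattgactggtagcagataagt
Junb: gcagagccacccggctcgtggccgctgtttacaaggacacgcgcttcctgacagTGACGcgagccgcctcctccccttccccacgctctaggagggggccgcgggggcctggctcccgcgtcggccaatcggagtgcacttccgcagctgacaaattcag

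Over the 250 bases before the start, on either strand, TGACG was found in 4 of the 7 genes, Fos, Fosb, Junb and Atf3. The same letters were found in 4827 of 27025 RefSeq promoter windows of that length (17.9%). TGACNTCA was found in Jun, against 7.59% of all windows, and TGANTCA in none, against 6.87%. TATAAA was found in Fos, against 13% of windows, and the CArG box, the serum response element core, in none, against 1.4%. In Fos the capitals lie 129 to 125, 66 to 62 and 33 to 28 bases before the start. These matches describe the letters in the window and are not binding measurements. Bases farther upstream were not searched, so a motif absent here, such as the CArG box in Fos, may lie beyond the window. The RefSeq start lies 34706 bases from the GENCODE gene start for Atf3, 1210 for Jund and 671 for Fosl2, so their windows may not be the promoters of the counted transcripts, and the TGACG of Atf3 carries that doubt.

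The first comparison asks how the AP-1 transcripts differ among the 4 preparations. They were most abundant after enzymatic digestion without inhibitors. The 3 ENZ-NONE libraries lay above all 9 others for 6 of the 7 genes, Fosl2 being the exception, while 72 of the 9882 genes tested (0.729%) had that order. Fos and Fosb passed the low-count filter, which keeps genes with enough counts in 1 group, only through ENZ-NONE. They therefore had to differ, and nothing is read from their part in this count or in later counts of the 7 genes in ENZ-NONE. Summed over the 7 genes, the level was 5631, 5897 and 10677 CPM in ENZ-NONE replicates 4, 5 and 6. It was 2175 CPM in DNC-NONE replicate 1 and between 764 and 1042 CPM in the other 8 libraries.

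**Figure D1:**
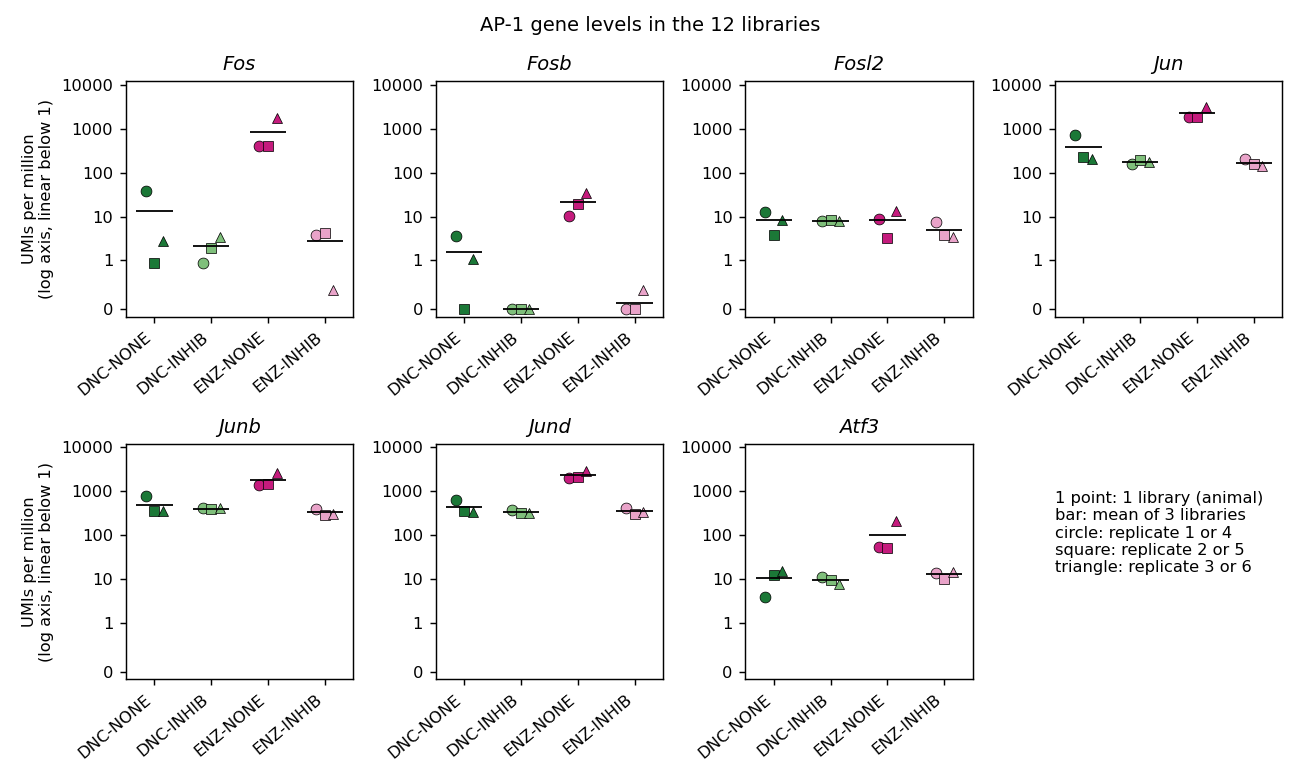
Level of each AP-1 gene in the 12 libraries, in CPM on a log axis that is linear below 1, with 1 point per library and a bar at the mean of 3. Points of ENZ-NONE lie above those of the other preparations in every panel except Fosl2, and replicate 6 (triangle) is the highest of the 3.

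Fos, the founding member of its family and a standard marker of recent stimulation, had the widest range. Its level was 411, 392 and 1753 CPM in ENZ-NONE replicates 4, 5 and 6, and 37.2, 0.944 and 2.78 CPM in DNC-NONE replicates 1, 2 and 3. It was 0.951, 1.90 and 3.40 CPM in DNC-INHIB replicates 4, 5 and 6, and 3.77, 4.15 and 0.390 CPM in ENZ-INHIB replicates 1, 2 and 3. The lowest ENZ-NONE library stood 10.5-fold above DNC-NONE replicate 1, the highest of the others. Fos passed the low-count filter only through ENZ-NONE, so nothing is read from this order or from the tests that follow. Behind these levels were 895, 602 and 4785 UMIs in ENZ-NONE and between 1 and 93 UMIs in the other libraries.

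Against DNC-INHIB the log2 fold change of Fos was 8.60 (SE 1.22, adjusted p = 0.0165; edgeR quasi-likelihood test), and against ENZ-INHIB it was 8.34 (SE 1.21, adjusted p = 0.0343). The difference from DNC-NONE was 5.71 (SE 0.97), and its adjusted p of 0.0596 missed the threshold of 0.05. Without ENZ-NONE replicate 6 the same difference was 4.53 and was called, with an adjusted p of 0.0226. Without DNC-NONE replicate 1 it was 8.70, a 417-fold difference in place of 52.2-fold, and was not called (adjusted p = 0.0601).

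Fosb, a paralog of Fos with the same partners, was rare throughout. It had 22, 29 and 95 UMIs in the ENZ-NONE libraries, 9, 0 and 2 in DNC-NONE, 1 in all of ENZ-INHIB and 0 in all of DNC-INHIB. The levels were 10.1, 18.9 and 34.8 CPM in ENZ-NONE against at most 3.60 CPM elsewhere, without overlap. Like Fos, Fosb passed the low-count filter only through ENZ-NONE, so nothing is read from this order or from its tests. The ENZ-NONE level was at least 60.2-fold that of DNC-INHIB, taking 3 counts over the group as the upper limit of a count of 0 (adjusted p = 0.00471). Against the single UMI of ENZ-INHIB the ratio of summed counts was 160 with a 95% exact counting interval of 28.3 to 6375 (adjusted p = 0.0185). Against DNC-NONE the log2 fold change was 3.46 (SE 0.68) and was not called (adjusted p = 0.0685). Leaving out ENZ-NONE replicate 6 gave 2.80 with a call (adjusted p = 0.00919), while it was 4.91 with no call without DNC-NONE replicate 1 (adjusted p = 0.0590).

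Fosl2 encodes Fra-2, a Fos relative that is usually induced later. Its levels were 8.72, 3.26 and 13.2 CPM in ENZ-NONE, 7.54, 3.77 and 3.51 in ENZ-INHIB, 8.09, 8.36 and 7.73 in DNC-INHIB and 12.8, 3.77 and 8.33 in DNC-NONE. The 4 groups overlapped. The log2 fold changes of ENZ-NONE were 0.97 (SE 0.42) over ENZ-INHIB, 0.21 (SE 0.38) over DNC-INHIB and 0.02 (SE 0.40) over DNC-NONE, and none was called. With 4 to 36 UMIs per library, the depth of these data limits what can be said of Fosl2.

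Jun, which can form AP-1 alone or with Fos, was already plentiful in the cold preparations. It stood at 1792, 1870 and 3143 CPM in ENZ-NONE and at 726, 222 and 203 CPM in DNC-NONE. The inhibitor preparations gave 157, 197 and 172 CPM for DNC-INHIB and 206, 153 and 138 CPM for ENZ-INHIB. ENZ-NONE did not overlap the others, and DNC-NONE replicate 1 was separate from the remaining 8 libraries. Jun rose by log2 3.74 (SE 0.54, adjusted p = 0.0177) over DNC-INHIB and by 3.83 (SE 0.54, adjusted p = 0.0318) over ENZ-INHIB. The difference from DNC-NONE, 2.59 (SE 0.51), was not called (adjusted p = 0.108), and without DNC-NONE replicate 1 it was 3.47 and called (adjusted p = 0.00533). Without ENZ-NONE replicate 6 it was 2.24 and not called (adjusted p = 0.186), and the call over ENZ-INHIB was lost (adjusted p = 0.0810).

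Junb, another Jun family gene with strong early induction, had the smallest fold changes of the 6. Its levels were 1385, 1441 and 2603 CPM in ENZ-NONE, 404, 294 and 301 in ENZ-INHIB, 408, 393 and 406 in DNC-INHIB and 774, 363 and 350 in DNC-NONE. The lowest ENZ-NONE library was 1.79-fold above the highest other, which was again DNC-NONE replicate 1. Junb rose by log2 2.22 (SE 0.38, adjusted p = 0.0431) over DNC-INHIB and by 2.49 (SE 0.38, adjusted p = 0.0494) over ENZ-INHIB, both just inside the threshold. Without ENZ-NONE replicate 6 both calls were lost (adjusted p = 0.0818 and 0.0890), and of the 12 fits that leave out 1 library, Junb was called in 2 against DNC-INHIB and in 1 against ENZ-INHIB. Against DNC-NONE the value was 1.91 (SE 0.37, adjusted p = 0.108). It was 2.40 and called without DNC-NONE replicate 1 (adjusted p = 0.0303), and 1.52 and not called without ENZ-NONE replicate 6 (adjusted p = 0.156).

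Jund gave the steadiest difference. It measured 1971, 2121 and 2924 CPM in ENZ-NONE, 407, 299 and 335 in ENZ-INHIB, 379, 322 and 315 in DNC-INHIB and 618, 358 and 344 in DNC-NONE. Its 3 ENZ-NONE libraries lay within 1.5 times of each other and at least 3.19-fold above every other library. Jund rose by log2 2.45 (SE 0.27, adjusted p = 0.00481) over DNC-NONE, 2.84 (SE 0.27, adjusted p = 0.00147) over DNC-INHIB and 2.80 (SE 0.27, adjusted p = 0.00321) over ENZ-INHIB. It was the only one of the 7 called in all 3 comparisons.

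Atf3, induced by many kinds of cell stress, was at 53.3, 51.5 and 206 CPM in ENZ-NONE. The other libraries ran from 4.0 CPM in DNC-NONE replicate 1 to 15.5 CPM in DNC-NONE replicate 3, so the groups did not overlap. The log2 fold changes were 3.13 (SE 0.69) over ENZ-INHIB, 3.58 (SE 0.71) over DNC-INHIB and 3.53 (SE 0.78) over DNC-NONE, and none was called, the lowest adjusted p being 0.0799. Without ENZ-NONE replicate 6, whose level was 3.94-fold the mean of the other two, they were 2.05, 2.50 and 2.45 and all 3 were called (edgeR, highest adjusted p = 0.000108).

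By the rule used for calls, an edgeR adjusted p under 0.05 over 9882 genes and an absolute log2 fold change above 0.58, 5 of the 7 genes rose over DNC-INHIB, beside 0.354% of all genes tested. The same number rose over ENZ-INHIB, beside 0.293%, and 1 of 7 over DNC-NONE, beside 0.263%. None fell. The 5 were Fos, Fosb, Jun, Junb and Jund in both inhibitor comparisons. Fos and Fosb passed the low-count filter only through ENZ-NONE, so their calls add nothing to these counts. The median log2 fold change of the 7 genes was 3.13 over ENZ-INHIB, 3.58 over DNC-INHIB (also with Fosb at its lower bound) and 2.59 over DNC-NONE, where the median of all genes was -0.00345, 0.00581 and 0.00231. The 3 comparisons share the ENZ-NONE libraries.

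**Figure D2:**
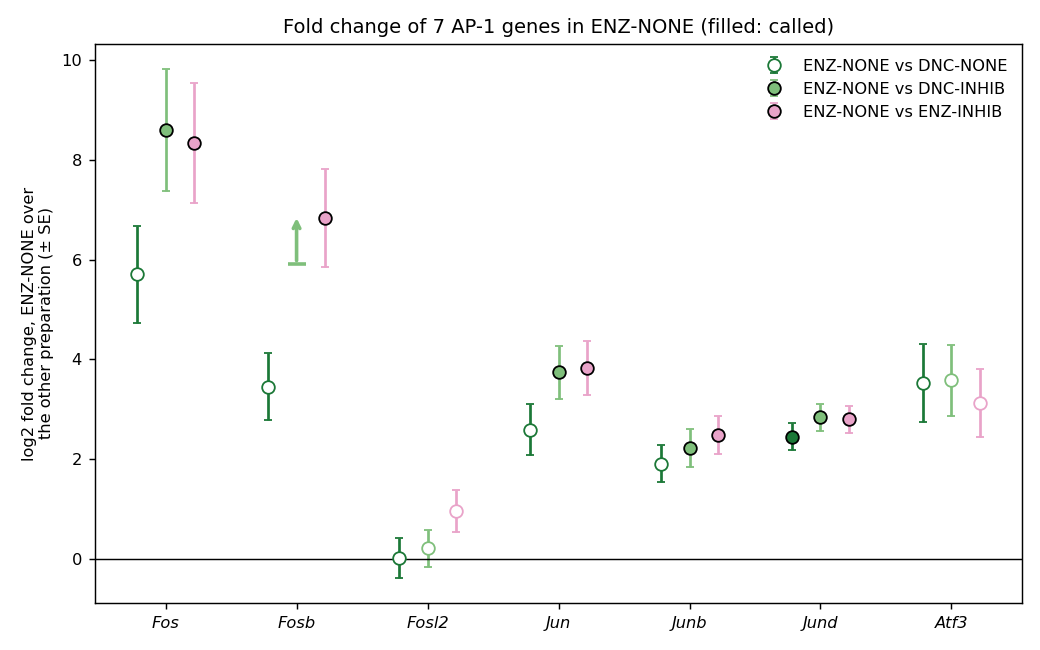
Log2 fold change of ENZ-NONE over each other preparation for the 7 genes, with bars of 1 SE. Filled points were called, and the arrow for Fosb starts at the lower bound of 60.2-fold, the DNC-INHIB libraries holding no Fosb UMI.

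The number of calls changed with how the spread was estimated. Without edgeR's robust option, which treats genes of unusual spread apart, 6 of 7 were called in each of the 3 comparisons, all but Fosl2. The same count was found when DNC-NONE replicate 1 and ENZ-NONE replicate 6 were both left out, with log2 fold changes over DNC-NONE of 7.56 for Fos, 4.24 for Fosb, 3.13 for Jun, 2.01 for Junb, 2.57 for Jund and 1.89 for Atf3. Leaving out any 1 ENZ-INHIB library left only Jund called against ENZ-INHIB, and leaving out any 1 DNC-INHIB library left 2 genes against DNC-INHIB and 2 against ENZ-INHIB. Without ENZ-INHIB replicate 3 there were 3 calls against DNC-INHIB. Against ENZ-INHIB there were 2 without DNC-NONE replicate 3, and 3 without DNC-NONE replicate 2, ENZ-NONE replicate 4 or ENZ-NONE replicate 5. Against DNC-NONE there were 4 without ENZ-NONE replicate 6, 3 without DNC-NONE replicate 1 and 2 without ENZ-NONE replicate 4. Of the 12 fits with 1 library left out, those that called each gene against DNC-INHIB and ENZ-INHIB numbered 9 and 4 for Fos, 11 and 8 for Fosb, 9 and 3 for Jun, and 12 and 12 for Jund. With batch as a covariate, the calls over ENZ-INHIB of Jun (3.82, adjusted p = 0.0569) and Junb (2.50, adjusted p = 0.0840) were lost and that of Atf3 was gained (3.45, adjusted p = 0.0422). Over DNC-INHIB Atf3 was then also called (3.91, adjusted p = 0.0111). Within batch 1, the 2 ENZ-NONE libraries were above the other 4 for 6 of 7 genes, an order that 5.3% of all genes tested had. Within batch 2, ENZ-NONE replicate 6 was above the other 5 for 7 of 7, against 14.5%, Fosl2 included.

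None of the 7 genes was called among the 3 other preparations. Between DNC-NONE and DNC-INHIB the calls numbered 0 of 9882 genes (0%), with 435 at an unadjusted edgeR p under 0.05, of which 1 was an AP-1 gene, Fosb. The Fos value there, log2 2.90 (SE 1.74), was -0.11 without DNC-NONE replicate 1. DESeq2 also called none there of the 6 genes other than Fos, for which it gave no adjusted p. Between ENZ-INHIB and DNC-INHIB, 20 genes were called (0.202%), and between ENZ-INHIB and DNC-NONE 17 (0.172%), with 0 of the 7 in either by edgeR and 0 of the 6 by DESeq2. At an unadjusted edgeR p under 0.05 these comparisons held 838 and 1031 genes, of which 0 and 2 were AP-1 genes.

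DNC-NONE replicate 1 differed from the other 8 libraries outside ENZ-NONE in the same genes. It was above all 8 for 6 of 7 genes, against 1264 of 9882 genes (12.8%), and Atf3 was the exception. The library was singled out by these same genes, so nothing is read from this count. Relative to the mean of the 8, its level was 16.3-fold for Fos, 19.2-fold for Fosb, 4.01-fold for Jun, 2.12-fold for Junb, 2.01-fold for Fosl2 and 1.79-fold for Jund. Atf3 there was 0.337-fold, the lowest of the 12 libraries. The Fosb value rests on 9 UMIs. DNC-NONE replicate 2, from the same batch, did not share these levels, with 222 CPM of Jun and 0.944 CPM of Fos. Replicate 1 also had the highest interferon-responsive marker sum, 392 CPM against 121 to 299 CPM in the other 11 libraries, whose part in its AP-1 levels was not tested.

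ENZ-NONE replicate 6 was also singled out by its AP-1 levels, so nothing is read from the next count. It was above replicates 4 and 5 for 7 of 7 genes, an order that 2773 of 9882 genes had (28.1%). It exceeded their mean 4.37-fold for Fos, 3.94-fold for Atf3, 2.40-fold for Fosb, 2.20-fold for Fosl2, 1.84-fold for Junb, 1.72-fold for Jun and 1.43-fold for Jund. It was the only ENZ-NONE library of batch 2, so batch and animal cannot be told apart for it. The monocyte markers summed to 230 CPM in it, against 60.6 and 69.7 CPM in replicates 4 and 5, and to 347, 188 and 271 CPM in the DNC-NONE libraries. Neutrophil markers were at 0.918 to 15.4 CPM in ENZ-NONE and at 9.20, 1607 and 3933 CPM in DNC-NONE. Their part in the AP-1 levels was not tested.

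The make-up of the AP-1 transcripts also differed. Fos made up 7.30, 6.65 and 16.4% of the UMIs of the 7 genes in ENZ-NONE and at most 1.71% in any other library. The Jun family made up 88.2% ± 6.11 (SD, n = 3) in ENZ-NONE and 97.5 to 97.9% as group means elsewhere. Junb alone made up 24.5% ± 0.115 in ENZ-NONE against 38.4% ± 0.416 in ENZ-INHIB, 43.0% ± 1.32 in DNC-INHIB and 37.1% ± 1.33 in DNC-NONE. Jun made up 31.0% ± 1.35, against 19.1% ± 1.43, 18.8% ± 2.42 and 26.2% ± 6.29 in the same order. These shares were not tested, and each rests on how the other members moved.

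The next question is how these transcripts were spread over single cells. To remove differences in depth, every kept cell was thinned at random to 1000 UMIs. A cell type known to lack these genes was not at hand, so the share of cells that free RNA alone would give was not estimated, and shares are read beside those of the other preparations. A Fos UMI was present in 13.3, 14.7 and 38.4% of cells in ENZ-NONE replicates 4, 5 and 6, with exact 95% intervals of 11.7 to 15.1, 12.6 to 16.9 and 36.2 to 40.8%. It was present in 2.99% of cells in DNC-NONE replicate 1 and in 0.0630 to 0.239% in the other 8 libraries. Most ENZ-NONE cells therefore carried no Fos UMI at this depth, while the positive cells carried several, with a mean of 3.81, 3.22 and 6.45 UMIs before thinning and up to 36 in 1 cell. The 10% of cells with the most Fos held 91.3, 87.4 and 57.8% of its UMIs in the 3 libraries.

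The Jun genes were spread more widely. Jun was found in 51.5, 55.3 and 69.9% of thinned ENZ-NONE cells and in 11.9 to 17.6% of cells of the 8 libraries other than DNC-NONE replicate 1. Jund was found in 58.5, 66.3 and 74.4% against 24.3 to 31.3%, and Junb in 50.2, 47.9 and 66.6% against 23.5 to 30.6%. Atf3 was found in 4.27, 4.20 and 11% against 0.870 to 1.50% of the same 8 libraries, and Fosb in 0.701, 1.16 and 2.63%. By this measure too, the ENZ-NONE libraries were above all 9 others for 6 of 7 genes, as for 62 of 9882 genes (0.627%).

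In DNC-NONE replicate 1 the breadth and the amount of Jun parted. The share of its cells with a Jun UMI, 46.5% with an exact interval of 44.2 to 48.8%, came close to the 51.5% of ENZ-NONE replicate 4 (49.0 to 54.0%). The positive cells of this library held a mean of 1.81 Jun UMIs before thinning, against 4.39, 4.24 and 6.40 in ENZ-NONE and 1.20 to 1.27 in the other 8 libraries. Junb was alike, in 45.4% of cells with 1.94 UMIs per positive cell, against 3.43, 3.51 and 5.47 in ENZ-NONE. Fos in this library was in few cells, 2.99%, with 1.27 UMIs per positive cell.

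Counting how many of the 7 genes a thinned cell held joined these patterns. At least 3 were found in 29.6, 32.9 and 54.1% of ENZ-NONE cells, a mean of 38.9% ± 13.3 (SD, n = 3). The shares were 2.35, 0.418 and 0.882% in ENZ-INHIB, 1.30, 1.84 and 1.78% in DNC-INHIB and 13, 2.70 and 2.36% in DNC-NONE. Cells with none of the 7 were 16.6, 15.4 and 7.61% of ENZ-NONE and 16.7% of DNC-NONE replicate 1, and 40.1 to 49.6% of the other 8 libraries. DNC-NONE replicate 1 thus matched ENZ-NONE replicates 4 and 5 in cells without any AP-1 UMI, but 0.598% of its cells held 4 genes and none held more. In ENZ-NONE replicate 6, 21.5% of cells held 4 genes, 8.30% held 5 and 0.973% held 6.

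**Figure D3:**
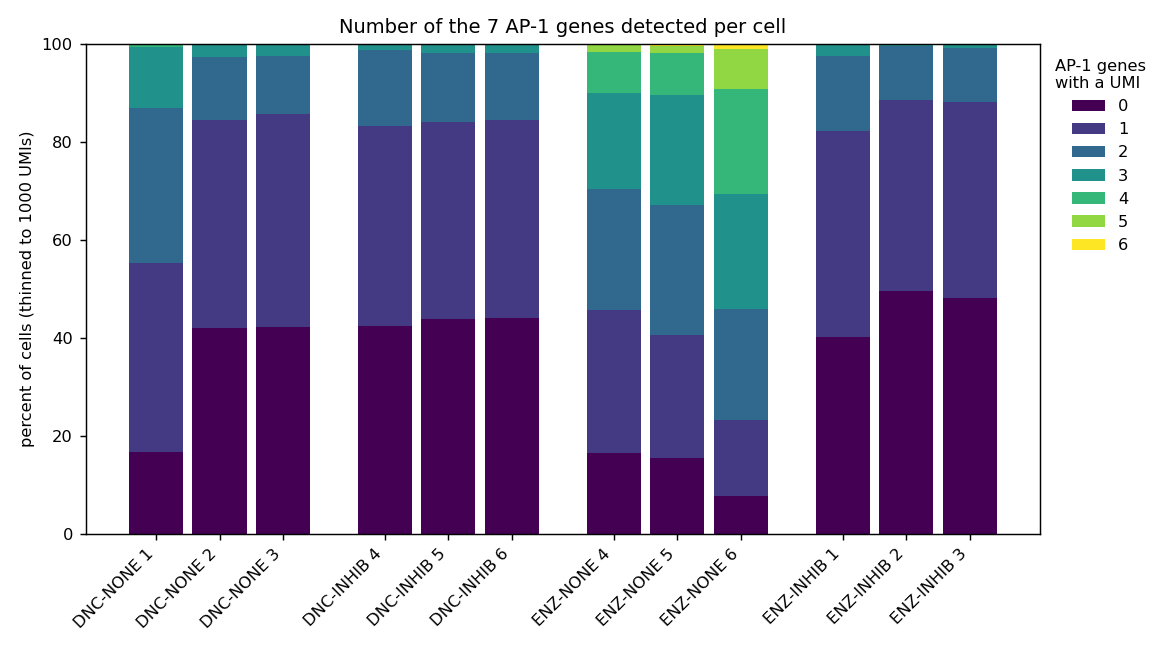
Percent of cells, thinned to 1000 UMIs, that hold a UMI of 0 to 6 of the 7 AP-1 genes, as stacked bars for the 12 libraries. The ENZ-NONE bars hold 29.6 to 54.1% of cells with 3 or more genes, and the dark lowest segment of DNC-NONE 1 is as short as theirs.

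Within ENZ-NONE, cells with a Fos UMI also held the other members more often. Among thinned cells of replicates 4, 5 and 6, Jun was found in 83.7, 84.8 and 88.8% of Fos-positive cells and in 46.6, 50.2 and 58.0% of Fos-negative cells. Junb was found in 76.6, 70.1 and 85.4% against 46.1, 44.0 and 54.8%, and Jund in 85.2, 88.4 and 89.9% against 54.5, 62.5 and 64.8%. Atf3 showed the widest ratio among the commoner genes, with 12.4, 13.4 and 23.5% against 3.01, 2.62 and 3.25%. Fosb was found in 2.87, 4.88 and 5.66% against 0.367, 0.524 and 0.744%, and Fosl2 in 1.44, 0.610 and 1.19% against 0.588, 0.210 and 1.39%. Jun, Junb, Jund, Atf3 and Fosb thus had the same direction in the 3 libraries, and Fosl2 did not. Fos-negative cells of ENZ-NONE still held Jun, Junb and Jund more often than all cells of any library outside ENZ-NONE, except that Junb in replicate 5, at 44.0%, was below the 45.4% of DNC-NONE replicate 1, whose 46.5% with Jun came close to the 46.6% of replicate 4. In DNC-NONE replicate 1, 55 cells held Fos, and of these 63.6% held Jun and 45.5% Junb, against 46.0 and 45.3% of its other cells. Cells of a library share their source, so these shares describe 3 animals.

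**Figure D4:**
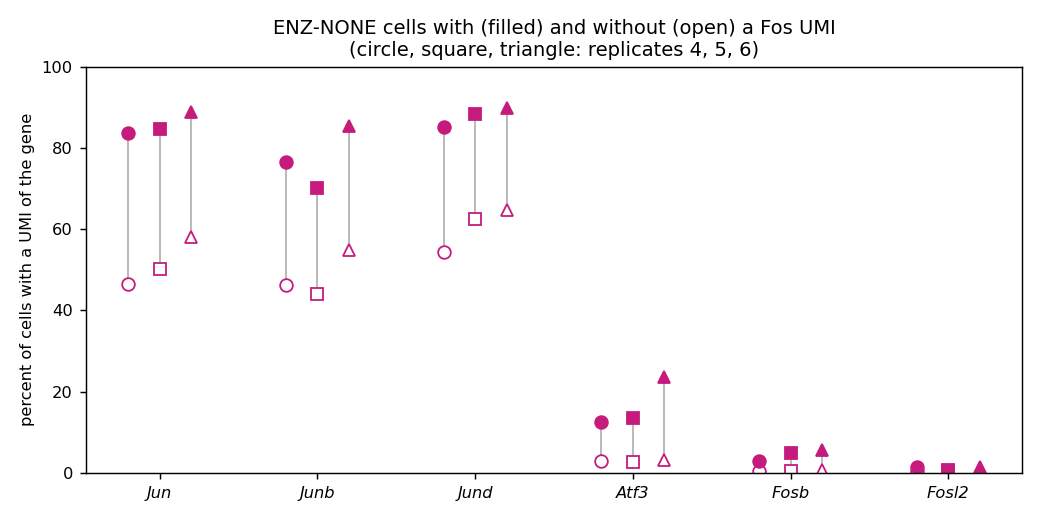
Percent of ENZ-NONE cells, thinned to 1000 UMIs, with a UMI of each other AP-1 gene among cells with (filled) and without (open) a Fos UMI, for replicates 4, 5 and 6. Filled points lie above open points for Jun, Junb, Jund, Atf3 and Fosb in each library, and the Fosl2 points overlap near 0.

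The second comparison sets microglia against border macrophages. Clustering that left the 7 genes out gave 17731 microglia-like cells (94.2% of those kept), 776 to 2035 per library, and 310 border macrophage-like cells (1.65%), 13 to 42 per library. The border class joined a cluster of 118 cells led by Pf4, Mrc1 and F13a1, with 7 border markers among its 10 leading genes, and one of 192 cells led by MHC class II genes (H2-Eb1, H2-Aa, Cd74). The larger cluster had Ms4a7 and the monocyte marker Ccr2 among its 10 leading genes, so it may hold other cells than border macrophages in the strict sense. A further 115 cells were monocyte-like and 561 interferon-responsive-like. The rebuilt names can differ from those of the study.

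In microglia-like cells taken alone, the differences between preparations were near those of all cells, with the same number of calls, 5, 5 and 1 of 7, against DNC-INHIB, ENZ-INHIB and DNC-NONE. Fos was at 350, 345 and 1660 CPM in the microglia-like cells of ENZ-NONE and in 12.5, 13.9 and 37.3% of them. Over DNC-NONE the Fos difference of log2 5.95 (SE 1.01) was not called (edgeR, adjusted p = 0.0632), and Jund rose by 2.45 (SE 0.28, adjusted p = 0.00580). In the 5347 microglia-like cells of DNC-INHIB there were 5 Fos UMIs, and in the 4366 of ENZ-INHIB 7.

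Border macrophage-like cells of ENZ-NONE held more Fos than microglia-like cells of the same libraries. Their level was 3113, 1755 and 4523 CPM, from 109, 36 and 270 UMIs in 21, 13 and 32 cells. In thinned cells, 57.1, 46.2 and 81.3% held a Fos UMI. The border level exceeded the microglial one 8.90-, 5.08- and 2.72-fold. Outside ENZ-NONE the 244 border macrophage-like cells gave 14 Fos UMIs, and their level was above that of microglia-like cells in 6 of the 9 libraries and 0 in the other 3.

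Junb, Atf3 and Fosb were also higher in border macrophage-like cells in 3 of 3 ENZ-NONE libraries, and Jun, Jund and Fosl2 in 2 of 3. How many of all genes had such orders between the classes was not counted, so these counts are descriptions. Jun was at 3628, 2096 and 3049 CPM in border macrophage-like and 1769, 1872 and 3241 CPM in microglia-like cells of ENZ-NONE. Junb was at 3628, 1804 and 3769 CPM against 1332, 1429 and 2615 CPM, whereas outside ENZ-NONE it was higher in 0 of 9. Jund was at 2685, 2389 and 2312 CPM against 1965, 2140 and 3027 CPM. By share of thinned cells, however, Jund was lower in border macrophage-like cells in each of them, with 57.1, 61.5 and 59.4% against 58.5, 66.5 and 75.9%. Fosb was in 0% of those of replicate 5, against 1.04% of microglia-like cells. The shares of Jun, Junb and Atf3 were higher in border macrophage-like cells in each ENZ-NONE library. Atf3 was at 171, 146 and 369 CPM against 47.5, 48.4 and 200 CPM, from 6, 3 and 22 UMIs. The 12 Fosb UMIs of border macrophage-like cells all came from ENZ-NONE, so its ratio to each other preparation has only a lower bound, the lowest of which was 3.67-fold, against ENZ-INHIB.

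**Figure D5:**
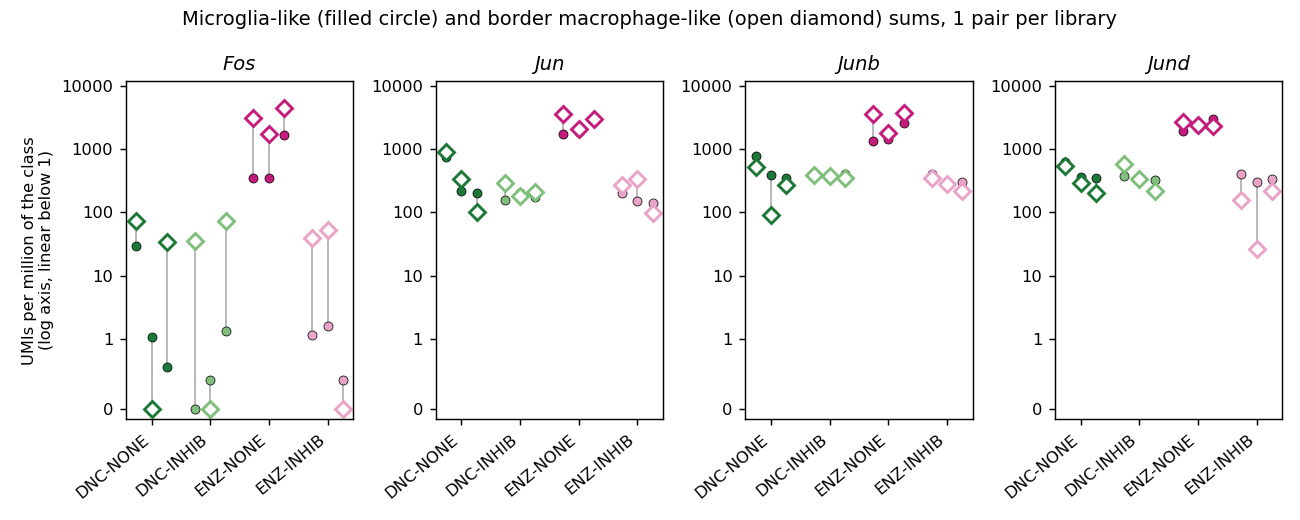
Level of Fos, Jun, Junb and Jund in microglia-like cells (filled circles) and border macrophage-like cells (open diamonds) of each library, in CPM of the class on a log axis that is linear below 1, with a line joining the 2 classes of 1 library. For Fos the diamonds of ENZ-NONE lie above the circles in 3 of 3 libraries, and elsewhere 3 of the 9 diamonds are at 0.

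Summed over border macrophage-like cells, 671 genes passed the filter, among them Fos, Jun, Junb and Jund. Of the 671 genes, 2.38% were called higher over ENZ-INHIB, 2.53% over DNC-INHIB and 2.53% over DNC-NONE. The filter keeps genes with enough counts in 1 group, and Fos had 415 UMIs in ENZ-NONE against 3, 6 and 5 in the others. A member that passed through its ENZ-NONE counts therefore had to differ. Nothing is read from how many of those that passed were called, or from the test of Fos. In that order the log2 difference of Fos was 6.64 (SE 0.65), 6.32 (SE 0.58) and 6.43 (SE 0.59). The first was against 3 UMIs, for which the ratio of summed counts was 127 with an exact interval of 43.1 to 618. Jun rose by 3.63, 3.79 and 2.58, Junb by 3.45, 3.08 and 3.40, and Jund by 4.14, 2.85 and 2.71. Without DNC-NONE replicate 2 the difference of Jun from DNC-NONE was 2.30 and was no longer called (adjusted p = 0.0766). Atf3, below the filter, had 31 UMIs in ENZ-NONE, 2 in ENZ-INHIB, 1 in DNC-INHIB and 0 in DNC-NONE.

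Whether the response itself differed between the classes was tested as an interaction, the log2 change from the mean of the other preparations to ENZ-NONE in border macrophage-like cells minus that in microglia-like cells, with the animal as a block. The mix of the border class differed between the preparations, the cluster led by Pf4 giving 18 of 66 border macrophage-like cells in ENZ-NONE, 14 of 65 in ENZ-INHIB, 40 of 84 in DNC-INHIB and 46 of 95 in DNC-NONE, and its part in the interaction was not tested. Of 7882 genes, 12 were called with a larger change in border macrophage-like cells (0.152%) and 1 with a smaller one (0.0127%). Junb was 1 of the 12, with a difference of 1.12 (SE 0.23, adjusted p = 0.00163), while the median of all genes was -0.17. The values for Fos (-0.98), Jun (-0.06), Jund (0.34) and Atf3 (1.63) were not called, which does not show equal changes. Without ENZ-NONE replicate 4 the Junb value was 0.81 and was not called (adjusted p = 0.610), and DESeq2 gave 1.20 (adjusted p = 0.355). Without DNC-NONE replicate 1 the Fos value was -2.82 and was called (adjusted p = 0.0221), a smaller fold change in border macrophage-like cells. The Fos levels it starts from rest on very few UMIs. ENZ-INHIB gave 3 Fos UMIs in border macrophage-like and 7 in microglia-like cells, and DNC-INHIB gave 6 and 5. Nothing is therefore read from the Fos values of this test or from that call.

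Inside the border class the clusters differed in ENZ-NONE. Fos was at 6060 CPM in the 18 cells of the cluster led by Pf4 and at 2805 CPM in the 48 cells of the MHC class II cluster. Jun was at 5068 against 2402 CPM and Jund at 4147 against 1885 CPM, while Junb was near even at 3544 and 3322 CPM. These are sums over 3 animals with no replicate check. Monocyte-like cells of ENZ-NONE were high as well, with 2388, 8261 and 3095 CPM of Fos from 191 UMIs in 28 cells, and the interferon-responsive-like cells, 110 in ENZ-NONE, were at 336, 441 and 1381 CPM, near the microglia-like level.

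The few Fos UMIs of the other preparations were not evenly shared among the cell types. Of the 18 in DNC-INHIB, 5 were in monocyte-like and 6 in border macrophage-like cells, which made up 20 and 84 of its cells. Of the 19 in ENZ-INHIB, 7 were in 20 monocyte-like and 3 in 65 border macrophage-like cells. Of the 99 in DNC-NONE, 67 were in microglia-like cells of replicate 1 and 20 in its 34 monocyte-like cells. Monocyte-like and border macrophage-like cells together thus held the larger part of the Fos UMIs in both inhibitor preparations.

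Fos, Egr1 and Dusp1 were the leading genes of 1 microglia-like cluster of 2009 cells, although clustering left the 7 genes out. It held 8.21, 8.97 and 55.2% of the microglia-like cells of ENZ-NONE replicates 4, 5 and 6 and 19.1% of those of DNC-NONE replicate 1. In the other 8 libraries it held 2.45 to 5.95%, and at most 1 of these cells per library had a Fos UMI after thinning. In the 3 ENZ-NONE libraries, 33.9, 43.2 and 48.1% of its thinned cells held a Fos UMI. The 4 other large microglia-like clusters of replicate 4 ranged from 7.85 to 11.6%, those of replicate 5 from 6.57 to 12.9% and those of replicate 6 from 16.0 to 30.6%. Fos was therefore found in each large microglial cluster of ENZ-NONE and not in that one alone, and the cluster held 32.2, 38.2 and 80.3% of the microglial Fos UMIs. Its cells were grouped by genes that accompany Fos, so this is a description without a test.

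Genes around the AP-1 pathway were read from 4 lists. The lists were chosen with earlier results of these data known, so their counts are descriptions. Of all genes tested, edgeR called 0.293% higher over ENZ-INHIB, 0.354% over DNC-INHIB and 0.263% over DNC-NONE. Of 29 other bZIP and AP-1 partner genes, 24 were tested, and edgeR called 0 over ENZ-INHIB, DNC-INHIB or DNC-NONE, with 1, 2 and 1 at an unadjusted p under 0.05. Of 27 upstream kinases and factors, 26 were tested and 0 were called by edgeR, with 0, 1 and 4 at an unadjusted p under 0.05. Their median log2 fold changes lay between -0.06 and 0.19, near the medians of all genes. DESeq2 and every other alternative that was run also called 0 in both lists.

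Of 34 genes often named as AP-1 targets, 28 were tested, and 3 rose in each of the 3 comparisons, with a list median of log2 0.32 over ENZ-INHIB, 0.22 over DNC-INHIB and 0.11 over DNC-NONE. Among them were Dusp1, a phosphatase that switches off MAP kinases, and Ccl3, a chemokine. Dusp1 measured 354, 376 and 1203 CPM in ENZ-NONE and at most 15.2 CPM elsewhere, a log2 fold change of 6.55 over ENZ-INHIB, 6.83 over DNC-INHIB and 6.30 over DNC-NONE. Ccl3 measured 207, 234 and 553 CPM against at most 44.0. Both genes were named because they were called with large fold changes, so nothing is read from ENZ-NONE not overlapping the other libraries in them. Replicate 6 was highest in both.

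Of 17 genes for the turnover of short-lived transcripts, all were tested and 1 rose, Zfp36, which encodes a protein that binds AU-rich elements and hastens decay. It measured 250, 261 and 633 CPM in ENZ-NONE, 85.6 CPM in DNC-NONE replicate 1 and 33.5 to 47.9 CPM in the other 8 libraries. It rose by log2 3.25 (edgeR, adjusted p = 0.0207) over DNC-INHIB and 3.40 (adjusted p = 0.0340) over ENZ-INHIB, and the 2.83 over DNC-NONE was not called (adjusted p = 0.0587). The AU-rich pentamer ATTTA occurs 4 times in the 3′ UTR models of Fos and of Jun, 8 times in that of Fosl2, 3 times in Atf3, 2 times in Junb and once in each of Fosb and Jund. Of 19202 genes, 26.9% have 4 or more.

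The genes closest to each member were found by the root mean square difference of centred log2 CPM over the 12 libraries, where 0 would be an identical profile. Fos was nearest to Dusp1 (1.00), Egr1 (1.39) and Adamts1 (1.47), with wide distances because its own range was the widest. Jun was nearest to Zfp36 (0.38), Hist1h1d (0.42) and Ccl3 (0.48). Junb and Jund were near each other (0.28), with Ier2 (0.28) and Rgs1 (0.39) beside Junb, and Zfp36 (0.31) and Hist1h2bg (0.41) beside Jund. Fosb was nearest to Jun (0.49), Hist1h1d (0.52) and Adamts1 (0.56), and Atf3 to Hist2h2aa1 (0.65), Hist1h1c (0.70) and Jund (0.73). The neighbours of Fosl2, A530017D24Rik (0.32), Fam117a (0.34) and 9430015G10Rik (0.34), included none of the genes named for the others. Without ENZ-NONE replicate 6, 14 of the 21 neighbours stayed the same. Counts of near-identical histone genes are uncertain because reads that fit several of them equally are not counted.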

How the data were processed

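Myeloid cells of 12 mice were measured with a droplet kit that counts transcript 3′ ends. The authors made the deposited UMI counts per gene and cell with Cell Ranger 3.0.0 on its mm10 reference, 1 matrix per animal, without normalization. Reads matching several genes equally are not counted. Kept cells had at least 1000 UMIs and 500 genes and at most 10% mitochondrial UMIs. A marker rule for doublets (3 genes and 5 UMIs of another cell type) removed 4 of 18830 cells (0.0212%), so doublets largely remain, and 382 cells with the highest Scrublet scores were removed as an alternative. Clusters came from scanpy 1.11.5 (Leiden resolution 1, 30 components, 20 neighbours), without the 7 genes. UMI sums per library were tested with edgeR 4.0.16 (R 4.3.3; quasi-likelihood, robust, TMM, all 4 groups in 1 fit), with Benjamini-Hochberg adjustment over all genes tested. The code was tested on simulated data. The labels place each library with 1 animal, so p-values of the group comparisons rest on the spread between animals within groups. That spread was estimated over the 4 groups together with information shared across genes, not from the compared groups alone. The interaction test used both cell classes of each animal, with the animal as a block. The members and the gene lists were chosen with earlier results of these data known. Named genes were the 7 members, up to 4 called genes per list by mean fold change, and the 3 nearest profiles per member. Intervals are exact and cover counting error only. The sequences are RefSeq promoters of GRCm38.p6, with 7 of 7 members matched by symbol. A gene of the target list is counted but not reported here by name.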

Additional observations from a re-analysis of the deposited data

Results flagged for a closer look

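Junb was the gene among the 7 whose change to ENZ-NONE differed between the cell classes in the test of the difference itself with all 12 libraries, being larger in border macrophage-like than in microglia-like cells by log2 1.12 (edgeR, adjusted p = 0.00163). Its level in border macrophage-like cells was above that in microglia-like cells in 3 of 3 ENZ-NONE libraries and in 0 of 9 others. This order comes from the same counts as the test and adds nothing to it, and its share among all genes was not counted. The call was lost without ENZ-NONE replicate 4 (0.81, adjusted p = 0.610) and with DESeq2 (1.20, adjusted p = 0.355). Fos was called without DNC-NONE replicate 1, with a smaller change in border macrophage-like cells (-2.82, adjusted p = 0.0221). Nothing is read from that Fos call, because both inhibitor preparations held very few Fos UMIs, 3 and 6 in border macrophage-like and 7 and 5 in microglia-like cells.

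The barcodes that failed the cell filters, 350 to 1660 per library, held the same transcripts. The main comparisons did not use them, while the alternatives with all deposited barcodes or a looser cell filter did. Their mean level in the 3 ENZ-NONE libraries was 678 CPM of Fos (270 to 1367), against at most 21.7 CPM in any other library. For Jun it was 2458 CPM (1968 to 3011) against at most 856, for Junb 1872 CPM (1313 to 2616) against at most 941, and for Jund 2336 CPM (2151 to 2625) against at most 532. For Atf3 it was 91.7 CPM (36.0 to 193) against at most 20.6, and for Fosb 20.3 CPM (5.96 to 39.6) against at most 5.43. These genes are listed because their ENZ-NONE libraries lay above all others. For Fosb the lowest ENZ-NONE value, in replicate 4, and the highest other, in DNC-NONE replicate 1, rest on 3 UMIs each, so their order is not read. Fosl2 overlapped, at 3.97, 17.2 and 39.6 CPM in ENZ-NONE replicates 4, 5 and 6 and 16.8 CPM in ENZ-INHIB replicate 3. How many of all genes had that order in these barcodes was not counted. With 3 libraries per group, no test for a single outlying sample was run.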

How the results depend on the processing

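Fos, Fosb, Jun, Junb, Jund and Atf3 stayed higher in ENZ-NONE in every alternative that was run, while the number of calls varied, and the causes of the changes given here were not tested. The fit without edgeR's robust option and the one without both outlying libraries were chosen after seeing the data. What depth limits are Fosb, Fosl2 and border macrophage-like cells, of which a library held 13 to 42, and DESeq2 gave no adjusted p for Fos, so its counts cover the other 6 genes. Against DNC-NONE, where 1 of the 7 genes was called, DESeq2 called 4, no filter on low counts 3, a fit of the 2 groups alone 0, a batch covariate 2, all deposited barcodes 2, a looser cell filter 2, no robust option 6 and both outlying libraries left out 6. The fit of 2 groups alone has fewer samples, and it called 2 against DNC-INHIB and 2 against ENZ-INHIB in place of 5. Without the low-count filter, 1 was called between DNC-NONE and DNC-INHIB. Leaving out 1 library gave 1 to 4 calls against DNC-NONE (4 without ENZ-NONE replicate 6), 2 to 5 against DNC-INHIB and 1 to 5 against ENZ-INHIB. A replicate block, pairing libraries of the same number, called 2 against DNC-INHIB, but the numbers do not pair the samples: same-number correlations of deviations were 0.109, -0.014 and 0.156 for ENZ-NONE with DNC-INHIB and -0.082, -0.054 and 0.014 for ENZ-INHIB with DNC-NONE. The last-named block changed no call of the 7.

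Small differences changed sign. For Fosl2, ENZ-NONE minus DNC-NONE was -0.053 in microglia-like cells alone and -0.019 without both outlying libraries, with a range of -0.51 to 0.51 when 1 library was left out, and against DNC-INHIB it was -0.31 without both and -0.31 to 0.52. Between DNC-NONE and DNC-INHIB, leaving out both gave -0.11 for Fos (1 library left out: -0.11 to 3.48), -0.29 for Fosl2 (-0.30 to 0.42) and -0.18 for Junb (-0.18 to 0.51), and thinned cells gave -0.18 for Atf3 (-0.50 to 0.61). Between ENZ-INHIB and DNC-INHIB, thinned cells gave -0.15 for Fos (-0.29 to 0.86), and leaving out 1 library gave -0.25 to 0.021 for Jun and -0.069 to 0.13 for Jund. Between ENZ-INHIB and DNC-NONE, leaving out both gave 0.36 for Fos (-3.18 to 0.37) and -0.15 for Atf3 (-0.15 to 0.96), which a batch covariate put at -0.034.

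The interaction of class and preparation had 0 calls with DESeq2 and 0 to 2 with 1 library left out; it was -2.33 for Fosb with DESeq2 where edgeR gave 4.63, and for Jun 0.062 with DESeq2 and 0.058 with its size factors (-0.38 to 0.15 with 1 library left out). In the target list, calls went from 3 to 1 in the fit of 2 groups for each comparison, to 1 in thinned cells against DNC-NONE, to 5 against DNC-INHIB with DESeq2, no filter or no robust option and 6 with a batch covariate, and to 5 against ENZ-INHIB with no filter or without both libraries. With 1 library left out they were 1 to 4 against DNC-NONE and 1 to 4 against ENZ-INHIB. In the turnover list they were 2 with DESeq2, with no filter and without both libraries in each comparison. The fit without the robust option called 1, 2 and 2 of them, all barcodes 2 and a looser filter 1 against DNC-NONE, and thinned cells 0 against ENZ-INHIB. With 1 library left out they were 0 to 1, 0 to 2 and 0 to 2.

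The share of cells with at least 3 members differed between settings. Thinned to 2000 UMIs, which kept the 1250 deepest of 18826 cells (33 to 224 per library), it was 17.0% in DNC-NONE, 8.32% in DNC-INHIB, 58.5% in ENZ-NONE and 8.09% in ENZ-INHIB, and without thinning 3.93% in DNC-INHIB and 3.87% in ENZ-INHIB. With looser filters and 500 UMIs it was 0.376% in DNC-INHIB and 25.2% in ENZ-NONE, and counting only genes with at least 2 UMIs it was 0%, 22.4% and 0.0245% in DNC-INHIB, ENZ-NONE and ENZ-INHIB. Jun among Fos-positive ENZ-NONE cells was 89.97% without thinning, 90.9% at 2000 UMIs, 80.5% at 500 and 81.2% with at least 2 UMIs. Among Fos-negative cells it was 62.7, 39.5 and 33.0% at 2000 UMIs, at 500 and with at least 2 UMIs. ENZ-NONE was highest in each setting.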
